A study of Drosophila melanogaster with 8 samples.

Results

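The change of accessible chromatin with time was compared between mutant and wild-type (WT) Drosophila melanogaster embryos, region by region, over all 8 libraries of the study. ATAC-seq marks accessible chromatin by letting the Tn5 transposase cut open DNA in nuclei taken from whole embryos. There were 4 groups of 2 libraries, namely mutant embryos at 2.5 to 3 h (late mutant), mutant embryos at 1 to 1.5 h (early mutant), WT embryos at 2.5 to 3 h (late WT) and WT embryos at 1 to 1.5 h (early WT). Every title, including those of WT, holds the words IntS11_mislocalized, so the mislocalization was taken to belong to the mutant. The labels name neither the allele, nor a driver, nor which of the study's mutant lines was used, and do not tell if a group's 2 libraries came from different embryo collections. Any p-value given here thus reflects how these libraries vary, and that variation may be technical only.

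Each library is a list of peak positions without counts, scores or summits, so its sequencing depth is unknown. A stretch without a peak is described as not called, since its accessibility may have been low or absent. In whole embryos, fewer cells with an open site and less accessibility per cell cannot be told apart. Peaks of the 8 lists that shared at least 1 bp were joined into 38545 regions, all of which were compared. For each region, the covered bp (the length under peaks) and the presence of a call were followed in each genotype across the windows. The difference of changes is the mutant's change with time minus that of WT, so a value above 0 means that the mutant gained more, or lost less, than WT.

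IntS11 provides the RNA-cutting activity of the Integrator complex, which cleaves nascent RNA close to many promoters and forms the 3′ ends of snRNAs made by RNA polymerase II. In the fly embryo, the earlier window falls in the rapid nuclear divisions that run mostly on maternal products, and the later window reaches the broad activation of zygotic genes. Chromatin becomes accessible at promoters and enhancers over this period, with pioneer factors such as Zelda acting at many of these sites.

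The early mutant libraries stood apart from the other 3 groups. They covered 4486 and 3712 kb, against 8336 and 8048 kb in late mutant, 8714 and 8376 kb in late WT and 8913 and 8189 kb in early WT. Covered length in the mutant was thus 2.0 times as large late as early, while the WT ratio was 0.999. The median peak was 337 and 342 bp wide in late mutant and 192 bp wide in both early mutant libraries. In WT it was 365 and 364 bp late and 280 and 272 bp early. Genes of the early zygotic list had a peak at an end in every library in 22 of 37 cases, while none of 19 follicle cell genes and none of 12 gut digestive enzyme genes did. Other tissue lists were not free of such genes, with 4 of 14 neural, 3 of 16 muscle, 3 of 18 hemocyte, fat body and yolk, and 1 of 11 germline genes.

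The number of peaks moved in opposite directions in the genotypes. The mutant had 19995 and 19035 peaks late and 18706 and 15569 early, so that both late libraries lay above both early ones. WT had 19002 and 18440 peaks late and 25201 and 23815 early, and the late libraries lay below the early ones without overlap. The difference of changes was 8164.5 peaks, made of a mean gain of 2377.5 in the mutant and a mean change of -5787 in WT. An exact two-sided permutation test, with genotypes permuted within windows over 36 arrangements, gave p = 0.0556, the smallest that this design allows, and an adjusted p of 0.167 over the 6 library values tested.

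The X chromosome took up a growing share of the mutant's peaks. It held 16.9% and 16.7% of peaks in late mutant, against 14.7% and 14.6% in early mutant. In WT it held 16.4% and 16.3% late and 16.1% and 16.2% early. The early mutant libraries were the lowest of the 8 and the late mutant libraries the highest. The difference of changes was 1.97 percentage points (exact permutation p = 0.0556, adjusted p = 0.167). Genes with a peak within 250 bp of either end of their span numbered 7352 and 7264 in late mutant and 5643 and 5032 in early mutant. In WT they numbered 8087 and 7965 late and 8054 and 7734 early. That difference of 1838.5 genes, like those of covered length, median width and the share of peaks at gene ends, had an exact permutation p of 0.333 and an adjusted p of 0.333.

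**Figure D1:**
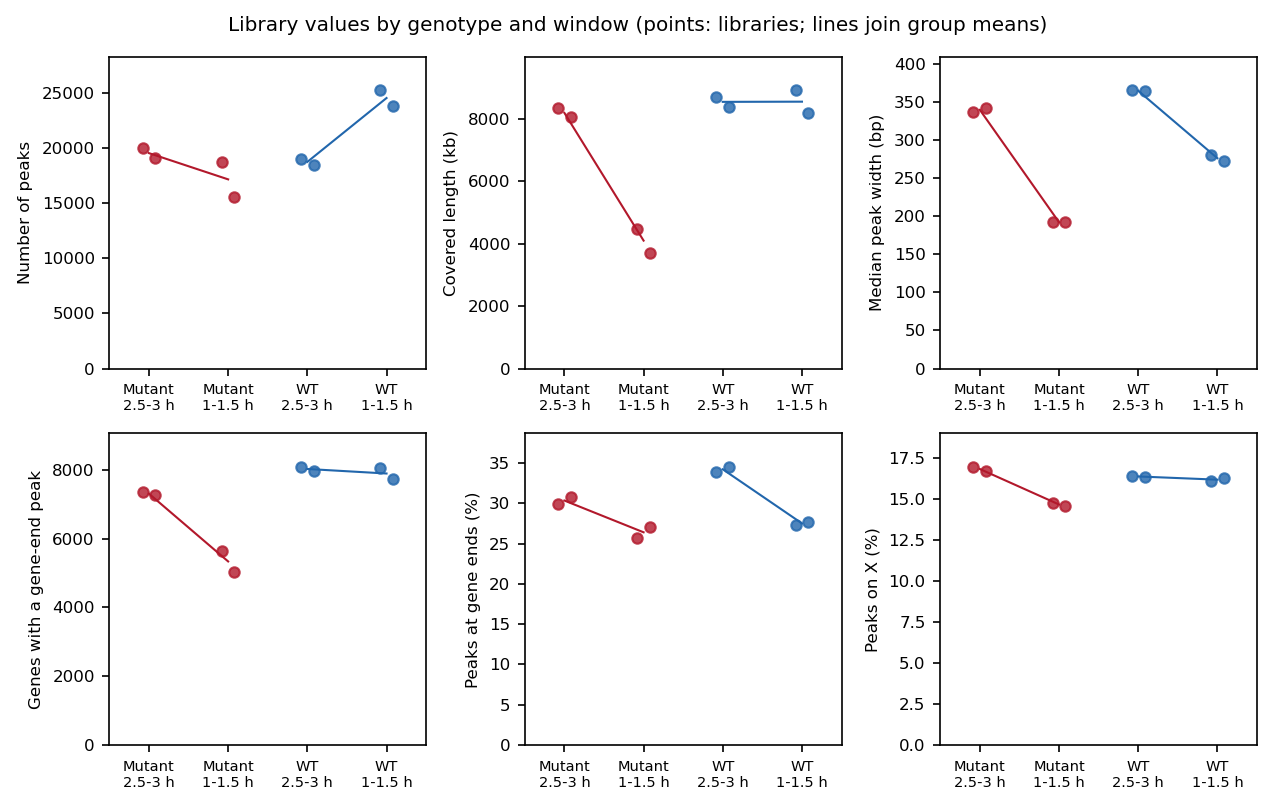
Each panel plots 1 value per library (points) for late and early mutant (red) and late and early WT (blue), with lines between group means: peak number, covered length in kb, median peak width in bp, genes with a gene-end peak, and the percentages of peaks at gene ends and on X. Early mutant libraries lie lowest in covered length, at 4486 and 3712 kb, and peak number falls with time in WT only.

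At the IntS11 locus on chromosome 3R (gene span 29745337 to 29747513, dm6), the genotypes differed in which region was called, and 1 of 3 regions fitted changed differently with time. A region at 29746418 to 29747371, inside IntS11 and reaching to within 250 bp of an end of its span, covered 907 and 947 bp in late mutant and 406 and 363 bp in early mutant, and was not called in any WT library. It was the mutant's own widening that set the difference of changes, at 1.09 ± 0.14 on the log2(covered bp + 100) scale (standard error, SE; limma, adjusted p = 0.00486). When covered bp were quantile-normalized, which gives all libraries the same distribution of values, it was 0.40 with an adjusted p of 0.325. A region at 29745279 to 29745833, at the other end of the span and also within asRNA:CR46109, was not called in any mutant library. It covered 269 and 418 bp in late WT and 514 and 323 bp in early WT, with a difference of changes of 0.22 (limma, adjusted p = 0.739). The region at the neighbouring ATPsyngamma was called in all 8 libraries, and its difference was 0.31 (limma, adjusted p = 0.631).

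Calls at single regions most often differed between the genotypes because early WT had a peak that early mutant lacked. Among them were regions inside vvl, which encodes a POU-domain transcription factor, inside Mi-2, the ATPase of the NuRD nucleosome remodeler, and inside psq, a BTB-domain DNA-binding factor. A region counted as called in a group where both libraries called it and as not called where neither did. All 4 groups were clear in this way in 13081 regions, while the other 25464 had a group in which 1 of 2 libraries called a peak and were left aside. The difference of changes was above 0 in 3604 regions (27.6%) and below 0 in 1132 (8.65%), and it was 0 in 8345, of which 6853 were called in every library. Presence has no test of its own for a single region with 2 libraries per group. Regions named for such a pattern were picked from the same values that were fitted, so their p-values are not separate support. When each list was limited to the 15569 widest peaks, the length of the shortest list, the counts were 1949 above 0 and 1733 below, so the share above 0 among the regions that differed was 52.93% rather than 76.1%.

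**Figure D2:**
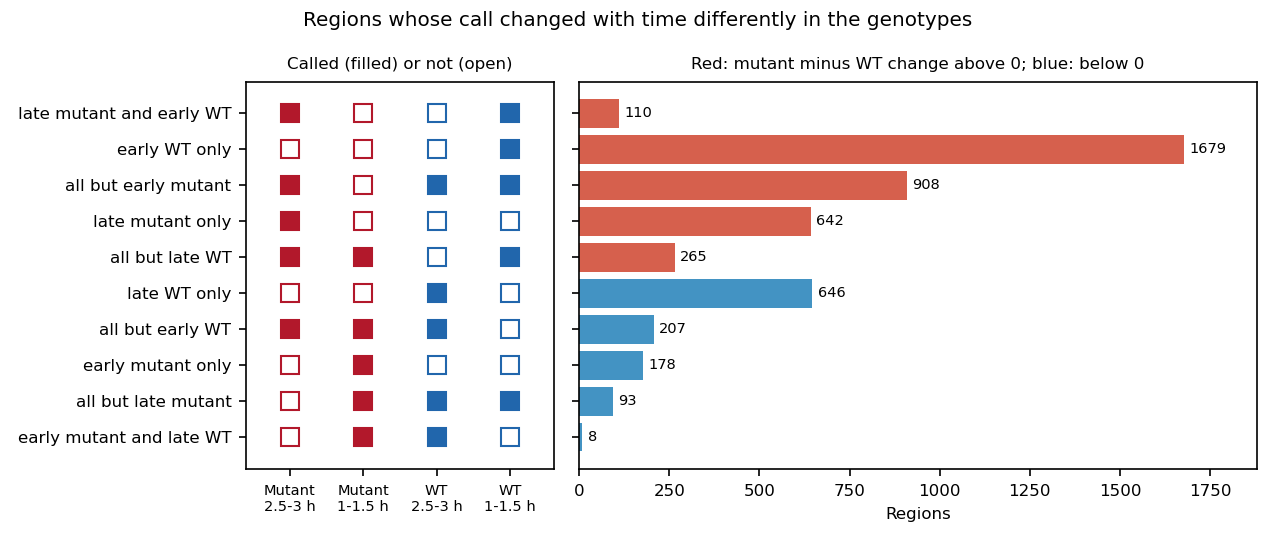
Squares show in which of the 4 groups both libraries called a region (filled) or neither did (open), and bars count the regions with that pattern, for the 10 patterns in which the genotypes changed differently with time. Regions called in early WT alone (1679) and in all groups but early mutant (908) make up most of those above 0.

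Regions called in early WT alone numbered 1679. The widest lay inside vvl (3L 6790809 to 6792033), where early WT covered 792 and 947 bp and the other 6 libraries none, a difference of 3.27 ± 0.16 (limma, adjusted p = 0.0014). Others of this kind lay at an end of Hsp67Ba, a small heat shock protein gene, with 736 and 570 bp in early WT, and at an end of png, a kinase gene needed for the translation of maternal mRNAs, with 687 and 570 bp. The vvl region was picked for being called in early WT alone, so its fitted difference and p-value restate that choice. Of the 2377 regions that lost their peak with time in WT, 70.6% had no peak in the mutant in either window, 13.6% lost it in the mutant too, and 110 gained one there.

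A further 908 regions were called in every group but early mutant. The widest lay inside Mi-2 (3L 19885408 to 19887595), with 606 and 764 bp in late mutant and none in early mutant, against 1492 and 1612 bp in late WT and 1611 and 1230 bp in early WT. The psq region (2R 10596043 to 10597255) had 971 and 966 bp in late mutant, none in early mutant, 1193 and 1150 bp in late WT and 1110 and 1204 bp in early WT. Both late mutant libraries lay below all 4 WT libraries at Mi-2 and, with smaller gaps, at psq. The differences of changes were 2.84 ± 0.25 at Mi-2 and 3.40 ± 0.14 at psq (limma, adjusted p = 0.0017 and 0.0014). A gene end lay in 44.2% of these 908 regions and 22.0% were on X, against 48.9% and 15.5% of the regions called in every library.

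Seen from the early window, 4641 regions were called in both early WT libraries and in neither early mutant library. In the late window, 908 of them (19.6%) were called in all 4 libraries of both genotypes and 1679 (36.2%) in none. Of the 8368 regions that WT called in both windows, the mutant called 81.9% in both windows and 10.9% late only. Another 265 regions were called in all groups but late WT. Inside fj, which encodes a Golgi kinase of planar polarity, late mutant had 1644 and 1806 bp and early mutant 668 and 835 bp. There, late WT had none and early WT 739 and 368 bp. The fitted difference was 3.75 ± 0.42 (limma, adjusted p = 0.00303), and late WT was the only group without a call. Inside L the values were 730 and 773 bp in late mutant, 493 and 450 bp in early mutant, none in late WT and 1362 and 1549 bp in early WT (4.53 ± 0.16, limma, adjusted p = 0.0014).

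Peaks confined to the later window divided almost evenly between the genotypes, with 642 regions called in late mutant alone, 646 in late WT alone and 553 in late libraries of both. Late mutant alone covered 1050 and 988 bp inside Acer, a gene of the angiotensin-converting enzyme family, with a difference of 3.48 ± 0.13. It alone covered 859 and 878 bp at an end of fd19B, a forkhead transcription factor gene, with a difference of 3.28 ± 0.13 (limma, adjusted p = 0.0014 for both genes). The Acer and fd19B regions were picked as called in late mutant alone, and their fits restate that choice. Late WT alone covered 967 and 723 bp inside tay and 734 and 719 bp inside milt, which encodes an adaptor for mitochondrial transport. Of the 1414 regions that gained a peak with time in WT, 39.1% gained one in the mutant, 45.7% had none there in either window, and 207 were called in the mutant in both. The regions of late mutant alone lay at gene ends in 14.6% of cases, between genes in 25.1% and on X in 21.5%. For late WT alone these shares were 24.9%, 18.6% and 20.9%, and for all regions called in at least 2 libraries 30.2%, 12.6% and 16.3%.

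Fewer regions showed the patterns in which the mutant lost a peak or had one early that WT lacked. Late mutant was the only group without a call in 93 regions, the widest inside luna, which encodes a Krüppel-like transcription factor. There late mutant had none and early mutant 667 and 845 bp, against 656 and 559 bp in late WT and 1067 and 997 bp in early WT. This gave a difference of -2.41 ± 0.21 (limma, adjusted p = 0.00166). Early WT was the only group without a call in 207 regions. The overlap of Mur2B and br, an ecdysone-response transcription factor gene, held such a region, with 660 and 695 bp in late mutant, 585 and 445 bp in early mutant, 739 and 735 bp in late WT and none in early WT (-2.72 ± 0.19, limma, adjusted p = 0.0014). Early mutant alone held 178 regions, among them 286 and 236 bp inside unc-4, a homeodomain gene (-1.85 ± 0.15, limma, adjusted p = 0.00159). The unc-4 region was picked for that pattern, which its fit restates.

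The widths of the regions, tested across the genome, changed differently with time at many loci, and most differences were above 0. The largest lay inside Pkc98E, which encodes a calcium-independent protein kinase C, inside caup, an Iroquois-complex homeodomain gene, and in the overlap of mRpS9 and wtrw, of which mRpS9 encodes a mitochondrial ribosomal protein. Among the 27751 regions called in at least 2 libraries, limma found 4456 above 0 (16.1%) and 1143 below 0 (4.12%) at an adjusted p under 0.05. The median difference over all regions fitted was 0.56 on the log2 scale, with early mutant as the group of least cover. With quantile-normalized values it was 0.05, and the calls were 2252 above (8.12%) and 1452 below (5.23%), so the share above 0 among called regions was 60.8% rather than 79.6%. Of the calls as first fitted, 2230 above and 1050 below kept their direction and stayed called, and none turned round.

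A region called by the 2 libraries of 1 group alone passes the filter only through that group, and such regions made up 2250 of the calls above 0 and 817 of those below. With regions called in at least 4 libraries, the counts were 1612 above and 224 below of 17700. The 6853 regions called in every library gave 765 above and 20 below, and 61 above and 153 below after quantile normalization. The direction in these shared regions therefore depended on the scaling.

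**Figure D3:**
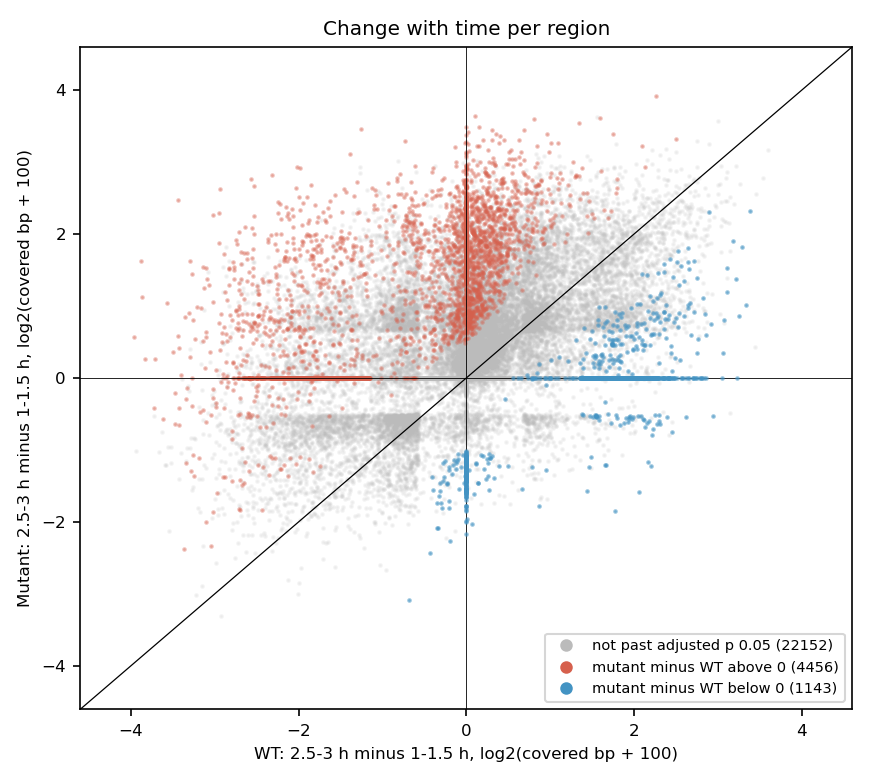
Each point is 1 of the 27751 regions fitted, with the WT change from 1-1.5 h to 2.5-3 h on the x axis and the mutant change on the y axis, both in log2(covered bp + 100). The diagonal marks equal changes; 4456 regions above it (red) and 1143 below it (blue) passed an adjusted p of 0.05, and the dense bars on the axes are regions with no call in 1 genotype.

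The calls above 0 came in nearly equal parts from WT and the mutant. In 1966 of the 4456 regions, WT narrowed with time while the mutant's change did not pass the threshold. In 2039, the mutant widened while the WT change did not pass. Of the calls above 0, 1610 lay in regions called in early WT alone, where the mutant had no cover in either window and could not narrow. Another 640 lay in regions called in late mutant alone, where WT had no cover in either window. The calls below 0 were mostly regions that widened in WT alone (791 of 1143), with 236 that narrowed in the mutant alone. Among the calls below 0, 641 lay in regions called in late WT alone and 176 in regions called in early mutant alone. The other genotype had no cover there. By place, 16.4% of regions at gene ends, 15.3% inside genes and 18.7% between genes were above 0. On X, 19.2% of regions were above 0 and 4.73% below, against 15.2% to 16.0% above and 3.55% to 4.39% below on the 4 large autosomal arms.

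In 178 regions (0.641%) the mutant widened and WT narrowed with time, each past the threshold, and 157 of them kept the call after quantile normalization. The Pkc98E region (3R 29044410 to 29045732) covered 665 and 305 bp in late mutant and none in early mutant, against none in late WT and 910 and 1061 bp in early WT. Late mutant and early WT called it and the other 4 libraries did not. Its difference of changes was 5.91 ± 0.44 (limma, adjusted p = 0.00145), the largest of those fitted.

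The caup region (3L 12616704 to 12617612) had 909 and 815 bp in late mutant, 144 and 0 bp in early mutant, none in late WT and 646 and 684 bp in early WT (5.56 ± 0.59, limma, adjusted p = 0.00263). At an end of wash (2R 12180649 to 12181863), whose product promotes actin nucleation on endosomes, late mutant had 648 and 516 bp and early WT 501 and 482 bp, with no call in early mutant or late WT (5.33 ± 0.18, limma, adjusted p = 0.0014). The wash call was lost when peaks had to share 100 bp to be joined. A similar arrangement was seen inside Set2, the histone H3 lysine 36 methyltransferase gene, inside Cep290, a gene of the ciliary transition zone, and inside cher, which encodes filamin. Set2 had 800 and 1232 bp in late mutant, 0 and 197 bp in early mutant, none in late WT and 461 and 496 bp in early WT. Cep290 had 663 and 552 bp in late mutant and 519 and 301 bp in early WT, and cher had 573 and 771 bp in late mutant and 264 and 353 bp in early WT, with no call in the other 4 libraries.

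Presence gave the same arrangement, called in late mutant and early WT and in no other group, in 110 regions (0.841%). Of these, 25.5% lay on X and 20.9% at gene ends, against 16.3% and 30.2% of all regions fitted. The converse, called in early mutant and late WT alone, held in 8 regions (0.0612%). With lists limited to equal length the 2 counts were 45 and 43, so the excess of the first over the second was not seen with lists of equal length.

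At the rest of the 10 largest differences above 0, mRpS9 (5.51 ± 0.59) and rho-5 (5.00 ± 0.64), a rhomboid family gene, also had early mutant calls and lacked only late WT. The mRpS9 region covered 1010 and 1080 bp in late mutant and 461 and 144 bp in early mutant, against none in late WT and 1637 and 1148 bp in early WT. BoYb, a Tudor-domain gene of the piRNA pathway, had a difference of 5.28 ± 0.66, which was no longer called with lists of equal length or with 100 bp joining. CG43901 had 5.25 ± 1.08 (limma, adjusted p = 0.0261), but it was lost without either library of late mutant, late WT or early WT, with an adjusted p of up to 0.0996, and after quantile normalization its adjusted p was 0.0598.

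Narrowing in the mutant with widening in WT was rare, at 9 regions (0.0324%), all of which kept the call after quantile normalization. Inside side-VI (3R 11047839 to 11048308), late mutant had no call and early mutant 137 and 128 bp, against 286 and 450 bp in late WT and none in early WT (-3.42 ± 0.26, limma, adjusted p = 0.0015). Inside Fife, a gene of the presynaptic active zone, the values were none in late mutant, 272 and 138 bp in early mutant, 156 and 189 bp in late WT and none in early WT (-3.02 ± 0.32, limma, adjusted p = 0.00266). The groups did not overlap within either genotype. Regions inside dally, which encodes a glypican, inside tsh, a homeotic zinc finger gene, and inside CG34355 belonged to the same set, with differences of -2.88, -2.70 and -3.34.

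The largest difference below 0 lay at the ends of PGRP-SA, a peptidoglycan recognition gene, and of Polr2A, the gene of the largest RNA polymerase II subunit (X 11562020 to 11562583). It covered none in late mutant and 220 and 182 bp in early mutant, against 162 and 564 bp in late WT and none in early WT (-3.65 ± 0.62, limma, adjusted p = 0.0133). The call was lost without either library of late mutant or of early WT, with an adjusted p of up to 0.0575. At the ends of Wdr82, a gene of the Set1 methyltransferase complex, and of CG13390, the difference was -3.62 ± 0.54 (limma, adjusted p = 0.00849), and it was not called with peaks of at least 200 bp, lists of equal length or 100 bp joining.

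Late WT alone, or nearly so, set the remaining large differences below 0. Inside CycB, a mitotic cyclin gene, late WT had 691 and 646 bp, late mutant and early WT had none, and early mutant had 106 and 0 bp (-3.46 ± 0.48, limma, adjusted p = 0.00657). Inside NaCP60E, a sodium channel gene, late WT had 496 and 536 bp and early mutant 111 and 0 bp, with none in late mutant and early WT (-3.16 ± 0.50, limma, adjusted p = 0.0103). The tay region (-3.23 ± 0.21) and the milt region (-3.05 ± 0.13) were called in late WT alone. The CG6878 region (-3.20 ± 0.76, limma, adjusted p = 0.0435) was lost without either library of late mutant, late WT or early WT, with an adjusted p of up to 0.138, and after quantile normalization its adjusted p was 0.103.

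**Figure D4:**
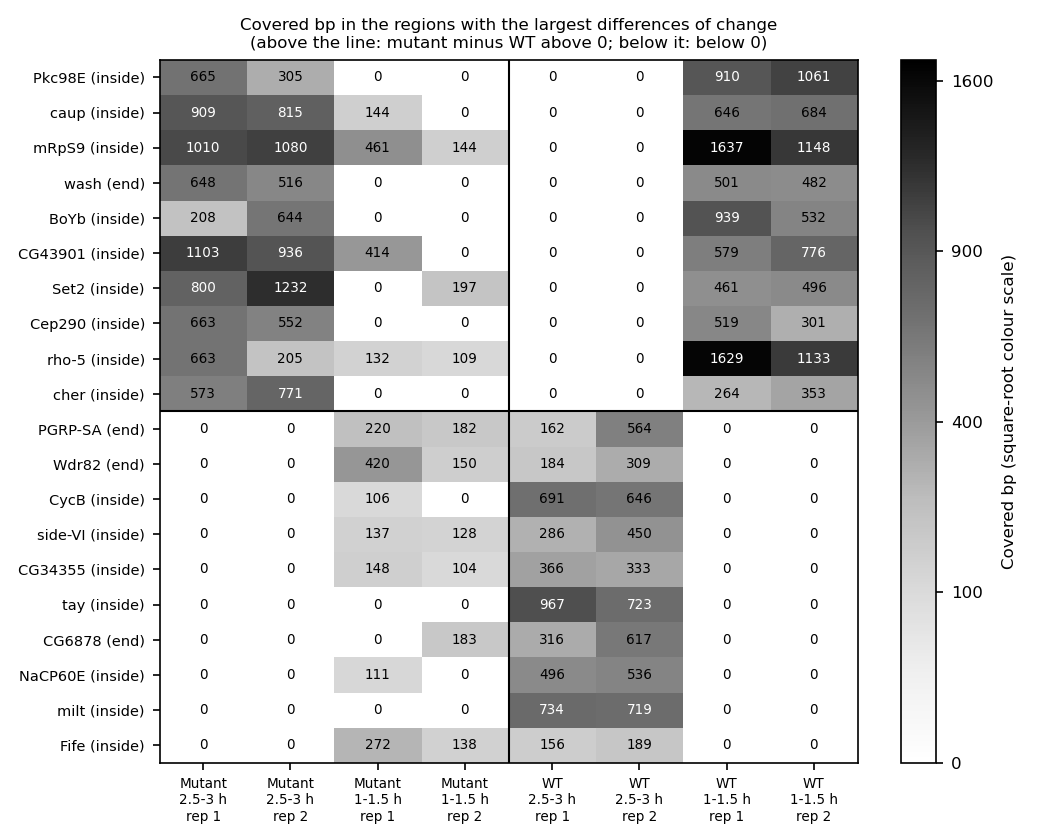
Covered bp in each of the 8 libraries (columns) for the 10 regions with the largest differences of changes above 0 (upper block) and below 0 (lower block), named by the gene they lie in or at. In the upper block late mutant and early WT are dark and late WT is at 0 throughout; in the lower block late mutant and early WT are at 0.

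Several long genes held many regions that differed. At least 3 regions above 0 lay in 238 genes and at least 3 below 0 in 24. Myo81F, which spans 1965857 bp next to the centromere of 3R, had 14 of its 52 fitted regions above 0 and 5 below. The long noncoding RNA gene lncRNA:CR32773 had 13 of 49 above, sick 12 of 44, and Eip75B, an ecdysone-induced nuclear receptor gene, 9 of 36. The genes with most regions below 0 held calls in both directions. The gene hth, which encodes a homeodomain cofactor of Hox proteins, had 7 of 51 below 0 and 7 above, and lncRNA:CR44357 had 6 of 59 below and 12 above. Of the teneurin genes, Ten-m had 6 of 46 below and 4 above, and Ten-a 5 of 41 below and 6 above. Over all regions fitted, 16.1% were above 0 and 4.12% below.

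Gene ends were tested with the same model on the bp covered within 250 bp of either end of each gene's span, since the gene table gives no strand. Of 9442 genes with cover in at least 2 libraries, 1523 were above 0 (16.1%) and 396 below 0 (4.19%) by limma, and the median difference was 0.30. After quantile normalization 744 were above (7.88%) and 459 below (4.86%) with a median of 0.02. Of the calls above 0, 723 were then still called, and of those below, 318. Genes covered in a single group, which passed the filter through that group alone, made up 293 of the calls above 0 and 195 of those below. Without the first early mutant replicate, the count above 0 was 2369.

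Opposite changes at gene ends were found in 36 genes that widened in the mutant and narrowed in WT (0.381%), 30 of which kept the call after quantile normalization. Lsp1gamma, a larval serum protein gene, covered 389 and 385 bp in late mutant and none in early mutant, against none in late WT and 224 and 212 bp in early WT (3.95 ± 0.07, limma, adjusted p = 0.000162). The microRNA gene mir-4960 had 158 and 151 bp in late mutant and 135 and 169 bp in early WT, with none in the other 4 libraries (2.68 ± 0.11, limma, adjusted p = 0.000174). The genes CG46310 and twit, singled out after their values were seen, showed the same arrangement, with differences of 4.52 at CG46310 and 3.98 at twit. In the reverse direction stood 6 genes (0.0635%), namely asRNA:CR46050, CG13585, tRNA:Val-CAC-1-1, tRNA:Tyr-GTA-1-7, Afg3l2 and PGRP-SA.

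Cuticle protein (Cpr) genes, which encode chitin-binding structural proteins of the exoskeleton, had the highest share of calls among the lists with at least 10 genes fitted. Of 29 genes fitted among 70, 12 were above 0 (41.4%) and none below, with a median of 0.50, and 6 were above after quantile normalization. Over all genes fitted, 16.1% were above 0 and 4.19% below, and 7.88% were above after quantile normalization. A single group held the cover in 5 of the 12. Cpr72Ec covered 47 and 57 bp in late mutant and none in early mutant, against none in late WT and 216 and 218 bp in early WT (2.27 ± 0.08, limma, adjusted p = 0.000162). Cpr78Cb was covered in early WT alone, with 170 and 180 bp (1.46 ± 0.07), and Cpr66Cb in late mutant alone, with 169 and 215 bp (1.54 ± 0.12). The summed cover of the 70 genes was 1696 and 1430 bp in late mutant, 1553 and 1136 bp in early mutant, 787 and 739 bp in late WT and 3584 and 3075 bp in early WT. Early WT was the highest group and late WT the lowest, and 29 of the 70 genes had no cover in any library.

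The snRNA genes gave 9 of 27 above 0 (33.3%) and none below, with a median of 0.23, against 16.1% and 4.19% of all genes fitted. Integrator cleaves the snRNAs that RNA polymerase II makes, and the list also holds genes of other kinds, among them 7SK and U6 genes, which RNA polymerase III transcribes. The 9 called were U1, U2, U4, U5 and U12 genes, of the first kind, and 2 of the 9 were covered in a single group. After quantile normalization 8 were above and 2 below, against 7.88% above and 4.86% below over all genes fitted. The ends of snRNA:U1:21D covered 541 and 528 bp in late mutant and 40 and 33 bp in early mutant, against 602 bp in both late WT libraries and 596 and 570 bp in early WT (2.18 ± 0.08, limma, adjusted p = 0.000162). For snRNA:U2:34ABb the values were 534 and 525 bp in late mutant, none in early mutant, 540 and 533 bp in late WT and 332 and 351 bp in early WT (2.13 ± 0.07, limma, adjusted p = 0.000162). Early mutant was the low group at both genes. The minor spliceosome gene snRNA:U12 was covered in early WT alone, with 141 and 144 bp, and snRNA:U5:38ABa in late mutant alone, with 103 and 98 bp. The copies of these genes are nearly alike in sequence, and a peak at a single copy is uncertain because reads can fit several of them.

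Of the Integrator subunit genes, 3 of 11 fitted were below 0 and 1 was above. The shares over all genes fitted were 4.19% below 0 and 16.1% above, and a difference of this small list from them was not tested. IntS9, whose product forms the cleavage module together with IntS11, was covered in late WT alone, with 251 and 204 bp (-1.71 ± 0.11, limma, adjusted p = 0.000556). IntS10 was likewise covered in late WT alone, with 205 and 265 bp (-1.74 ± 0.13, limma, adjusted p = 0.000926). Both passed the filter on low values only through late WT. After quantile normalization 3 were below 0 and none above. The call of defl (-1.88), the fly IntS7, was lost without either library of the mutant groups or the second replicate of either WT group, with an adjusted p of up to 0.0883. That of asun (0.71), the fly IntS13, was lost without either library of late mutant, early mutant or late WT, with an adjusted p of up to 0.085. The ends of IntS11 itself covered 155 and 175 bp in late mutant, 37 and 109 bp in early mutant, 300 and 309 bp in late WT and 268 and 279 bp in early WT, with a difference of 0.53 (limma, adjusted p = 0.308).

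Maternal patterning genes gave 4 of 13 above 0 (30.8%, against 16.1% of all genes fitted) and none below, all 4 in the dorsal-ventral cascade, and 3 of the 4 were covered in a single group. The ends of dl, which encodes the NF-kappaB factor Dorsal, covered 284 and 286 bp in early WT and none in the other 6 libraries (1.95 ± 0.07, limma, adjusted p = 0.000162). The gene of the Toll ligand, spz, was also covered in early WT alone, with 187 and 245 bp (1.65 ± 0.14). The gene gd, which encodes a protease acting upstream of that ligand, was covered in late mutant alone, with 275 and 271 bp (1.90 ± 0.07). The call of snk, a further protease of the cascade (1.15), was lost after quantile normalization, where its adjusted p was 0.836.

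Zygotic patterning genes had calls near or under the background of all genes fitted, which was 16.1% above 0 and 4.19% below. The early zygotic list gave 5 above and 1 below of 33, gap and terminal genes 3 and 0 of 17, pair-rule and segment polarity genes 3 and 0 of 18, Hox genes 1 and 0 of 12, and dorsoventral genes 4 and 1 of 31. After quantile normalization none of the early zygotic, gap and terminal or Hox genes was above 0, and 2 early zygotic and 2 Hox genes were below. Pair-rule and segment polarity genes then had 2 above, and dorsoventral genes 2 above and 1 below. The gap gene Kr covered 501 bp in both late mutant libraries and 286 and 293 bp in early mutant, against 355 and 413 bp in late WT and 329 and 314 bp in early WT (0.43 ± 0.11, limma, adjusted p = 0.0498). That call was lost without either library of late mutant, early mutant or early WT, with an adjusted p of up to 0.0986. Ance, an angiotensin-converting enzyme gene of the dorsal ectoderm, was covered in late mutant alone and passed the filter only through that group, with 190 and 214 bp (1.59 ± 0.08, limma, adjusted p = 0.00028). The Zelda gene, zld, named outside the rule, had a peak at an end in every library and a difference of 0.13 (limma, adjusted p = 0.58). The E(spl) complex gave 3 above of 10, with none after quantile normalization.

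Genes of promoter, pioneer and chromatin factors gave 4 above and 3 below of 28, and 2 and 2 after quantile normalization. Over all genes fitted, 16.1% were above 0 and 4.19% below as first fitted. Dref, a core promoter factor gene, had 332 and 400 bp in late mutant and none in early mutant, against 501 and 391 bp in late WT and 390 and 381 bp in early WT (2.05 ± 0.18, limma, adjusted p = 0.00132). Only early mutant lacked cover there, as it did at the ends of Mi-2 (2.11 ± 0.10, limma, adjusted p = 0.000193). CTCF, an insulator protein gene, was covered in late WT alone, with 299 and 273 bp (-1.95 ± 0.08, limma, adjusted p = 0.000174). Stat92E, the JAK/STAT transcription factor gene, was so too, with 290 and 281 bp (-1.95 ± 0.07, limma, adjusted p = 0.000162), though its call was lost with a 500 bp window. CTCF and Stat92E passed the filter only through late WT. Among elongation factor genes, 2 of 15 were above 0 and none below. Spt6, a histone chaperone gene, reached 501 bp in both late mutant and late WT libraries, with 128 and 145 bp in early mutant and 474 and 501 bp in early WT (1.31 ± 0.09, limma, adjusted p = 0.000528). A value of 501 bp is the whole window at a single end.

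Cytoplasmic ribosomal protein genes gave 19 above and 1 below of 81 (23.5% and 1.23%), with a median of 0.44, and 8 above and 1 below after quantile normalization. RpLP2 had 732 and 730 bp in late mutant and 13 and 0 bp in early mutant, against 811 and 914 bp in late WT and 656 and 738 bp in early WT (2.70 ± 0.14, limma, adjusted p = 0.000275). RpL32 was covered in early WT alone, with 197 and 208 bp, and RpS12 lacked cover in late WT alone. Of all genes fitted, 16.1% were above 0 and 4.19% below. Mitochondrial ribosomal protein genes gave 5 above and 1 below of 66 (7.58% and 1.52%). Nuclear oxidative phosphorylation genes gave 10 and 5 of 63 (15.9% and 7.94%), and proteasome genes 7 and 2 of 33 (21.2% and 6.06%). After quantile normalization the counts were 3 above and 3 below for mitochondrial ribosomal protein genes, 5 and 6 for oxidative phosphorylation genes and 1 and 3 for proteasome genes. None of these lists then had more genes above 0 than below, while all genes fitted gave 744 above and 459 below. Among cell cycle genes 5 of 19 were above 0, and 2 after quantile normalization. Heat shock genes gave 2 above of 11, ecdysone response genes 3 of 17, dosage compensation and sex genes 3 of 13, and the list of zygotic microRNA and maternal clearance genes 1 of 14, with none below in these 4 lists. After quantile normalization, heat shock and ecdysone response genes had 2 above each, dosage compensation and sex genes none, and the microRNA and clearance list none above and 1 below. No replication-dependent histone gene was called, with 3 of 111 fitted.

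Small RNA genes were called in both directions. Of all genes fitted, 16.1% were above 0 and 4.19% below. As first fitted, the tRNA, snoRNA and scaRNA, and microRNA lists each lay under the first share and over the second. The tRNA genes gave 30 above and 20 below of 215 (14.0% and 9.3%), and 6 above and 30 below after quantile normalization. The direction of the balance thus turned with the scaling, and like snRNA genes they have near-identical copies. The first 5 tRNA genes by size of the difference were all below 0, among them tRNA:Arg-TCG-3-3, covered in late WT alone with 367 and 369 bp (-2.23 ± 0.07, limma, adjusted p = 0.000162). The snoRNA and scaRNA genes gave 13 above and 8 below of 110 (11.8% and 7.27%), and microRNA genes 12 and 6 of 86 (14.0% and 6.98%). After quantile normalization these were 5 above and 8 below for snoRNA and scaRNA genes, a balance that turned too, and 5 and 5 for microRNA genes. The muscle microRNA gene mir-1 was covered in late WT alone, with 397 and 399 bp (-2.32 ± 0.07, limma, adjusted p = 0.000162). So was mir-9a, with 246 and 339 bp (-1.96 ± 0.17, limma, adjusted p = 0.00133). Like tRNA:Arg-TCG-3-3, mir-1 and mir-9a passed the filter only through late WT. A single group held the cover in 11 of the 20 tRNA genes below 0, 6 of the 8 snoRNA and scaRNA genes and 4 of the 6 microRNA genes. At mir-2496, early mutant had no cover and the other 6 libraries 618 bp each (2.84 ± 0.07, limma, adjusted p = 0.000162). No group varied at mir-2496, so its SE came only from the spread that limma takes from all genes fitted. Groups without cover in both libraries, as at mir-1, dl and Stat92E, likewise had no spread, and the small SEs there lean on that shared value.

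Marker genes of other tissues, in 6 lists, had no cover at their ends in any library in 36 of 90 cases. Of the follicle cell list, 2 of 10 fitted were above 0, and Cp38, Vm32E and 4 other members had no cover in any library. The summed cover of that list was 1309 and 1101 bp in late mutant, 873 and 795 bp in early mutant, 449 and 501 bp in late WT and 1854 and 1608 bp in early WT, which is the same order of group means as for the cuticle genes. Vm26Ab, a vitelline membrane gene, had 511 and 291 bp in late mutant and 266 and 370 bp in early mutant, against none in late WT and 460 and 363 bp in early WT (2.59 ± 0.36, limma, adjusted p = 0.00742). The hemocyte, fat body and yolk list gave 2 above of 7, with Hml, He and 7 others uncovered, and muscle genes gave 2 of 10, with Mlc1, Tm2 and 2 others uncovered. Neural genes gave 3 above of 8, with Syt1, nSyb and 4 others uncovered. The shares over all genes fitted were 16.1% above 0 and 4.19% below, and a difference of these small lists from them was not tested. With quantile-normalized values, 1 follicle cell gene, 1 hemocyte, fat body and yolk gene, 2 muscle genes and 1 neural gene were above 0. Gut digestive enzyme genes (5 fitted) and germline genes (6 fitted) gave no call, though 1 germline gene was below 0 after quantile normalization. The summed cover of neural genes was 2906 and 2605 bp in late mutant, 1161 and 1314 bp in early mutant, 1847 and 1734 bp in late WT and 1905 and 1948 bp in early WT. The part of these tissues in the other results was not tested.

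**Figure D5:**
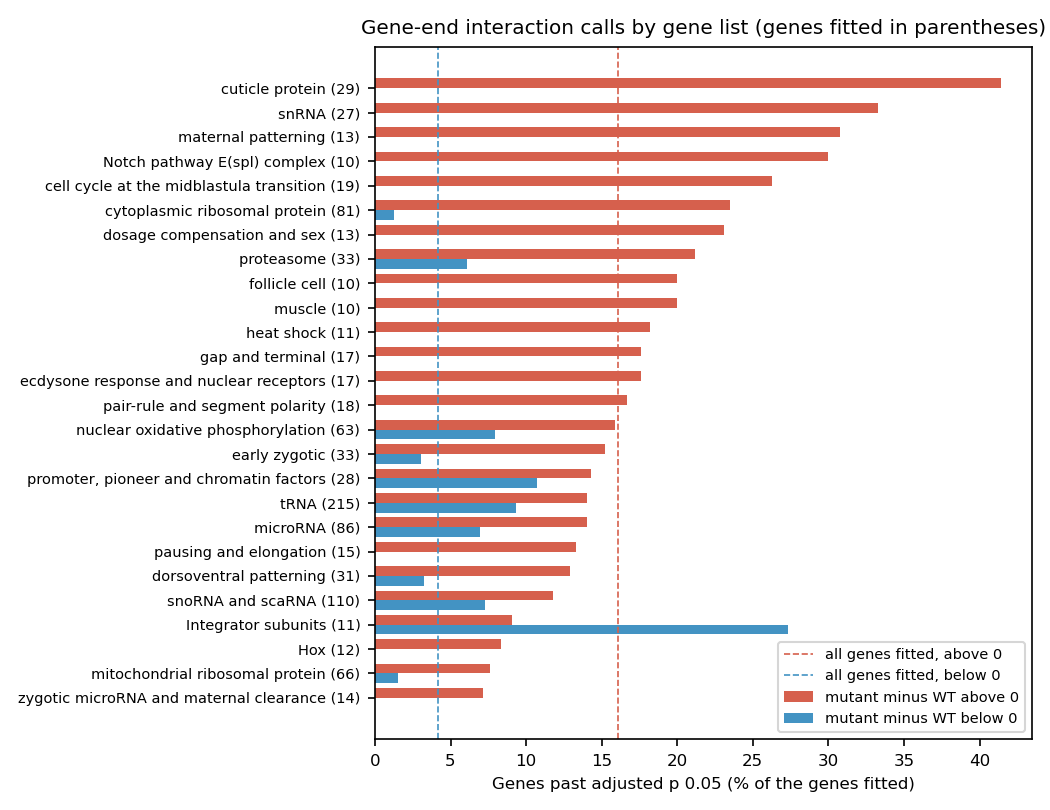
Percentage of fitted genes in each list (genes fitted in parentheses, lists of at least 10) whose difference of changes passed an adjusted p of 0.05 above 0 (red) or below 0 (blue), with dashed lines at the values of all genes fitted, 16.1% and 4.19%. Cuticle protein genes (41.4%) and snRNA genes (33.3%) lie highest above 0, and Integrator subunit genes (27.3%) highest below 0.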

How the data were processed

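The deposited files are 8 peak lists, 1 per library, so the authors called peaks per sample. Each holds 3 columns (chromosome, start, end), used as positions in base pairs, with no other deposited value. The submitters' processing notes name the build dm6, MACS2 2.2.7.1, Bowtie2 2.2.5, deepTools 3.5.1, SAMtools 1.18 and Trimmomatic 0.39. The settings of these programs are unknown, as is any shift of reads for the transposase. The shortest peak was 100 and 101 bp in early mutant and 122 and 120 bp in early WT. It was 148 and 149 bp in late mutant and 156 and 154 bp in late WT. The lists thus had no common minimum width, and the minimum differed by group. Narrow sites could be called in early libraries, most of all early mutant, and missed in late ones. The part of this in the differences of changes was not tested directly. With peaks of at least 200 bp, above all these minimum widths, 4673 regions were above 0 and 1100 below. The median early mutant peak, at 192 bp, falls under that filter.

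Groups came from the titles. Peaks were joined at 1 bp of overlap, and covered bp were summed per region and library. The difference of changes was fitted over all 8 libraries with limma 3.58.1 in R 4.3.3, with group means, on log2(covered bp + 100). A log2 change on this scale understates the change of narrow regions. Where both libraries of a group had no cover, the group had no spread, which makes the SE smaller. Regions or genes covered in at least 2 libraries were fitted, two-sided, with Benjamini-Hochberg adjustment over all of them and a threshold of 0.05. Values per library were compared by exact permutation. Python 3.11.15, numpy 2.4.6 and pandas 2.3.3 were used, and the scripts were tested on simulated data. Gene spans (17807 genes) came from a RefSeq table of the Release 6 assembly, without strand or exons, so both ends of a span were used. Coordinates are dm6, 1-based. No pair of lists was identical. Alternatives changed the pseudocount, scaling, filters, joining, gene-end window and libraries included.

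The text names the IntS11 locus, the 10 regions of largest difference in each direction whose sign held for every choice of 1 library per group, and up to 6 widest regions per presence pattern. It also names up to 6 called members per gene list and up to 6 genes per direction with at least 3 called regions. Members and the 31 gene lists were chosen with earlier results of these data known. Of the symbols, 4 (atu, bgn, bra, nos) were not matched. Sequences were not used here.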

Additional observations from a re-analysis of the deposited data

Results flagged for a closer look

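The changes with time differed between the genotypes by a test of the difference itself, limma's interaction term, in 4456 regions above 0 and 1143 below 0, and at the ends of 1523 genes above 0 and 396 below 0. In 178 regions the mutant widened and WT narrowed, and in 9 the mutant narrowed and WT widened. For the number of peaks (difference of changes 8164.5), both libraries of each genotype moved in opposite directions, and the exact permutation test could not fall below 0.05 in this design.

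The same interaction term picked out single regions. Above 0 these were Pkc98E at 5.913, caup at 5.556, mRpS9 at 5.509, wash at 5.327, BoYb at 5.278, CG43901 at 5.247, Set2 at 5.199, Cep290 at 5.135, rho-5 at 4.999 and cher at 4.958, all on the log2(covered bp + 100) scale. Below 0 they were PGRP-SA at -3.647, Wdr82 at -3.619, CycB at -3.463, side-VI at -3.421, CG34355 at -3.337, tay at -3.228, CG6878 at -3.2, NaCP60E at -3.161, milt at -3.047 and Fife at -3.017. Groups of 2 libraries are too small to look for a library that stands apart within its group.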

How the results depend on the processing

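Counts of called regions moved by more than 1.5 times under 3 alternatives. Quantile normalization gave 2252 above 0, regions called in at least 4 libraries gave 1612 above and 224 below, and lists of equal length gave 2813 above and 1781 below. For genes, quantile normalization gave 744 above, a 500 bp window 246 below and lists of equal length 597 below. For presence, lists of equal length gave 1949 regions above 0, 1733 below, 45 gained in the mutant and lost in WT and 43 the reverse. With peaks of at least 200 bp the reverse count was 2, against 8 as reported. Leaving out 1 library at a time gave 3813 to 6084 regions above and 1090 to 1495 below, 1256 to 2369 genes above (2369 without the first early mutant replicate) and 438 to 535 below. Presence then gave 4110 to 6770 regions above 0 and 1486 to 2963 below, with 150 to 289 and 12 to 60 in opposite directions. Presence above 0 moved by over 1.5 times without the first early mutant replicate (5490), the second late mutant replicate (5559) or either early WT replicate (6154 and 6770). Presence below 0 did so without either early mutant replicate (2255 and 2963) or either late WT replicate (1834 and 2007). Every count above 0 stayed larger than its count below 0, and where 1 library of a group was left the other was assumed to vary like the other groups. The library values kept their direction, with peak number at 6596 to 9733. With peaks of at least 200 bp the difference in peak number was 9156, and its exact permutation p was 0.222 rather than 0.0556.

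The other alternatives for regions (pseudocounts of 50 and 300 bp, scaling by median peak width, all regions, peaks of at least 200 bp, joining at 100 bp, a trended robust prior) left both counts within 1.5 times. Without the centromere-proximal stretches, an alternative chosen after seeing the data, they were 4239 and 1099. Of the named items, 46 of 67 regions and 37 of 109 genes neither lost a call nor turned direction under any alternative. The 46 include regions that were not called as first fitted, some of which were called under an alternative. Directions turned with peaks of at least 200 bp for the regions of alphaTub84D (0.01296), CG15740 (0.36), lncRNA:CR45177 (0.39) and d4 (0.09144). At gene ends they turned for E(spl)m3-HLH (-0.45 with that filter and with lists of equal length), Cdk1 (-0.50) and tll (-0.01842) with a 500 bp window, E(spl)m4-BFM (-0.009272) and stg (-0.04897) after quantile normalization, and Scr (-0.74) and nkd (-0.0545) with lists of equal length. The cause was not tested.

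Replicate numbers did not pair the libraries, since deviations of same-numbered libraries correlated at -0.00697 to 0.0194 across groups. The depth behind these lists is unknown, and its part in these values was not tested. A fit with the replicate number as a block gave 3859 regions above and 1052 below, and 1272 genes above and 355 below.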

Other observations

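Outside the rule for named genes, and chosen after their values were seen, a few genes lacked cover at their ends in early WT alone. Su(var)205, the gene of the heterochromatin protein HP1a, had 199 and 214 bp in late mutant and 142 and 131 bp in early mutant, against 578 and 628 bp in late WT and none in early WT (difference of changes -2.44, limma, adjusted p = 0.000162). Sf3b2, a gene of the U2 snRNP, had 205 and 183 bp in late mutant and 213 and 178 bp in early mutant, against 426 and 501 bp in late WT and none in early WT (-2.50). In the mutant, Su(var)205 widened with time by 0.37 on the log2(covered bp + 100) scale (limma, adjusted p = 0.0119), and the change of Sf3b2 was -0.0058 (limma, adjusted p = 1.0). CG15027 was covered in late WT alone, with 885 and 710 bp (-3.16).

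Stretches next to the centromeres, bounded after the data were seen (2L beyond 22 Mb, 2R before 5.5 Mb, 3L beyond 23 Mb, 3R before 4 Mb, X beyond 22 Mb), held 3.70% of all regions. They held 18.2% of the regions called in late mutant alone (117 of 642) and 12.1% of those called in all groups but early WT, against 0.991% of those called in all groups but early mutant. Their share of peaks was 4.37% and 4.29% in late mutant and 3.13% and 3.03% in early mutant, against 2.93% and 2.89% in late WT and 2.34% and 2.30% in early WT. The difference of changes was 0.66 percentage points (exact permutation p = 0.556). Without these stretches, presence gave 3428 regions above 0 and 1083 below.

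Among the regions called in the mutant in both windows and never in WT, 31.4% of 102 lay on X, against 16.3% of all 27751 regions fitted and 15.5% of the regions called in every library. Over the other presence patterns the share on X ranged from 11.15% (early in both genotypes, 323 regions) to 25.5% (late mutant and early WT, 110 regions). It was 22.0% in all groups but early mutant, 21.5% in late mutant alone and 20.9% in late WT alone, so a raised share was not particular to the 102 regions.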
